A study of Mus musculus with 12 samples.

Results

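Amino acid supply and tRNA synthetase genes were followed across fresh and cultured CD4+ T cells of the mouse spleen. The set is a named list of 44 genes, matched by gene symbol, in 5 classes: 9 transporters, 8 serine and one-carbon enzymes, 6 genes of the ATF4 branch of the stress response, 8 other amino acid and polyamine enzymes, and 13 tRNA synthetases. Of the 44 genes, 42 had a row of their own among the 22180 genes tested. Aars was found only on a row shared with another gene and Pycr1 on no row, so neither has a value here. Measured values had no part in the rule, although the set was chosen with earlier results of these data known.

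Cells that grow and divide take up amino acids through membrane transporters, make serine and one-carbon units for nucleotide synthesis, and load amino acids onto tRNA with aminoacyl-tRNA synthetases. In T cells, stimulation of the antigen receptor is known to increase all of these, partly through the kinase complex mTORC1 and the transcription factors MYC and ATF4. ATF4 is controlled mainly at translation: when amino acids run short, phosphorylation of eIF2alpha favours its synthesis, and it then acts on genes that hold a C/EBP-ATF response element.

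The CD4+ cells of whole spleens were taken from Foxp3.eGFP mice, aged 8 weeks and of C57BL/6 background, in which green fluorescence reports Foxp3, the transcription factor of regulatory T (Treg) cells. The cells were untreated and fresh (control), or were treated for 3 days with monoclonal antibodies to CD3 and CD28 (2 µg/ml of each), which engage the T cell receptor and its costimulator, or with the ligands OX40L (soluble, 5 µg/ml) and JAG1 (1 µg/ml), which engage OX40 and Notch instead. Foxp3+ Treg and Foxp3- Teff cells of each culture were measured on 2 Affymetrix Mouse Gene 2.0 ST arrays a group, 12 arrays in 6 groups, to set proliferation driven through that receptor beside proliferation without it. Every group carries the reporter, the mixed CD4+ cells were treated together, and the control was fresh, so that stimulus and culture cannot be told apart in a comparison with control. Levels are log2 intensities as deposited, differences are log2 differences of group means ± SE, and a gene is said to rise, fall or differ where its adjusted p in limma is under 0.05. Whether the 2 replicates of a group (1 and B) are separate mice or cultures is not stated in the labels, so the p-values measure the spread between these samples only, which may be technical. In cell populations measured in bulk, fewer cells of a type and less RNA per cell cannot be told apart.

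The OX40L-JAG1 Teff arrays stood apart. Their 2 replicates correlated at 0.881 over genes, against 0.984 to 0.994 elsewhere. The SD of the replicate difference over the 42 members was 0.636, against 0.136 to 0.299. Foxp3 matched the labels, at 10.36 to 11.22 on Treg arrays and 5.58 to 6.82 on Teff arrays. Markers of myeloid cells, basophils and mast cells were high in both OX40L-JAG1 groups. Marker sums are given as the log2 of the summed linear levels, in which the brightest genes weigh most. The sum of 12 neutrophil and other myeloid markers was 12.23 to 13.43 in OX40L-JAG1 Teff and 11.07 to 11.31 in OX40L-JAG1 Treg cells. It was 7.69 to 8.43 in the other 4 groups. That of 8 basophil and mast cell markers was 10.52 to 11.63 and 9.48 to 9.75, against 6.80 to 8.01. S100a8, a defining neutrophil gene, was at 3.34 to 5.18 in those 4 groups. The marker sum of 9 T cell markers was 12.14 to 12.93 in OX40L-JAG1 Teff cells and 13.23 to 14.20 elsewhere. The part of these other cells in the results on the OX40L-JAG1 groups was not tested. Counts over the whole set, in comparisons that do not use the OX40L-JAG1 Teff arrays, are given below also for the other 10 arrays alone. Counts of classes and related lists and tests of single genes are given in that form only in part.

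The promoters of the set were searched for the C/EBP-ATF response element through which ATF4 acts. RefSeq promoters (build GRCm38.p6) matched 35 of the 44 genes, with 40 start sites. In the 250 bases before the start, the letters TGATGNAAN were found on either strand in 8 of these 40 promoters, which is 20.0%, against 3.44% of all 32851 promoters. The set includes genes listed for their known link to ATF4, so this share describes the list. The E-box CACGTG, which MYC can bind, was found in 3 of the 40, which is 7.5%, against 6.02% of all; no 2 matches overlapped. The holders of TGATGNAAN were Slc7a11, Chac1, Asns, Got1, Gars and Tars among the measured genes, and Pycr1 and Aars. The 250 bases upstream of the start are shown for the 6 measured genes, so that the levels below can be read beside the element. They are written 5′ to 3′ on the gene's strand, with the match in capitals.
Got1 (chr19:43524606-43524855, minus strand): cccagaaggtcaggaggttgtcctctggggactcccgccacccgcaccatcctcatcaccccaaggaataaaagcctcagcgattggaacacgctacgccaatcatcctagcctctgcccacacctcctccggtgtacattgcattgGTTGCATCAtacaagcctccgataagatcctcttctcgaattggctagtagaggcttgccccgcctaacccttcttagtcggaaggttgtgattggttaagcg
Tars (chr15:11399659-11399908, minus strand): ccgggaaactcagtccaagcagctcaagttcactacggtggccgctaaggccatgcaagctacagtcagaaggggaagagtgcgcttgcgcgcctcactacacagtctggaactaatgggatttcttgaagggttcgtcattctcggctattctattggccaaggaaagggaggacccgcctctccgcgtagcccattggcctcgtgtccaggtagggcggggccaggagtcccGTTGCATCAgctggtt
Asns (chr6:7693210-7693459, minus strand): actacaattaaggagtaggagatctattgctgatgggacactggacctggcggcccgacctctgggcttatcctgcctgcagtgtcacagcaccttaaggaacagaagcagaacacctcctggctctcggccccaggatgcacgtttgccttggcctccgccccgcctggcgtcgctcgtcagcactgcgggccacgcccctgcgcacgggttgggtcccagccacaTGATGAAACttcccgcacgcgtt
Gars (chr6:55037751-55038000, plus strand): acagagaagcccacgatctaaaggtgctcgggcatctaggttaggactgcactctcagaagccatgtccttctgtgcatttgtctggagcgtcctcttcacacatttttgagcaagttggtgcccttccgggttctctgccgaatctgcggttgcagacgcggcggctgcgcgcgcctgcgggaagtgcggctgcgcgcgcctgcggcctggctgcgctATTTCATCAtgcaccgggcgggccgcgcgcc
Slc7a11 (chr3:50443614-50443863, minus strand): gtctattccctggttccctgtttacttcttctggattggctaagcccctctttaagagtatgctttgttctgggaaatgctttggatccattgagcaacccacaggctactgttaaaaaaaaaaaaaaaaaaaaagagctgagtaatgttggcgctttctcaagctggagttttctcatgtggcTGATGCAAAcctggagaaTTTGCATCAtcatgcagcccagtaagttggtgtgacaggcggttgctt
Chac1 (chr2:119350992-119351241, plus strand): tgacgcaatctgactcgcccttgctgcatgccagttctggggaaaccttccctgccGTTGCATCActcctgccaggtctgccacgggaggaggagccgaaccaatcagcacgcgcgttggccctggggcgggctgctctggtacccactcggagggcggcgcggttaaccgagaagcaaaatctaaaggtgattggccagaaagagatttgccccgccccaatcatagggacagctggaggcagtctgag
The match ended 8 bases before the start in Tars, 15 in Asns, 23 in Gars, 95 in Got1 and 186 in Chac1. Slc7a11 held 2 matches, 1 on each strand, ending 58 and 40 bases before the start. Read on the motif's strand, the match was TGATGCAAC in Got1, Tars and Chac1, TGATGCAAA in Slc7a11, TGATGAAAC in Asns and TGATGAAAT in Gars. A match is a description of these letters and not evidence of binding.

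Of the 42 genes, 25 had their highest group mean as deposited in anti-CD3-CD28 Treg cells, among them 11 of the 12 synthetases, and 8 in anti-CD3-CD28 Teff cells. The highest mean of 6 genes was in fresh Teff cells, and 5 of these are transporters. The lowest mean of 31 genes, all 12 synthetases included, was in OX40L-JAG1 Teff cells.

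Treg cells after anti-CD3-CD28 had rises in all 5 classes and no falls. Against control Treg cells, 18 of the 42 genes rose and 0 fell, where 8.08% of all genes rose and 1.97% fell; the median difference was 0.78 over the 42 genes and -0.05 over all genes. Against OX40L-JAG1 Treg cells, 14 were higher and 0 lower, where 4.73% and 1.18% of all genes were. In OX40L-JAG1 Treg cells 3 of the 42 genes rose from control, Slc7a11, Vars and Wars, and 0 fell (0.996% and 0.559% of all genes), with a median of -0.06. Quantile normalization, which gives every array the same distribution of levels, kept 8 of the 18 rises, 5 of the 14 and 2 of the 3, while loess removal of each array's trend with level gave 2 rises and 2 falls with OX40L-JAG1. Quantile normalization lowered the median difference after anti-CD3-CD28 from 0.78 to 0.45, with 37 of 42 differences above 0. Of the 18 rises, 7 passed in every alternative and with each array left out (Psat1, Mthfd1l, Asns, Aldh18a1, Gpt2, Got1 and Wars), and of the 14, 5 did (Psat1, Shmt1, Mthfd1l, Asns and Gpt2). Without the OX40L-JAG1 Teff arrays, whose spread enters the shared error, 28 genes rose and 0 fell against control Treg cells (14.8% and 6.75% of all genes), 27 were higher and 1 lower against OX40L-JAG1 Treg cells (9.89% and 4.01%), and 5 rose and 2 fell with OX40L-JAG1 (3.40% and 2.01%).

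**Figure D1:**
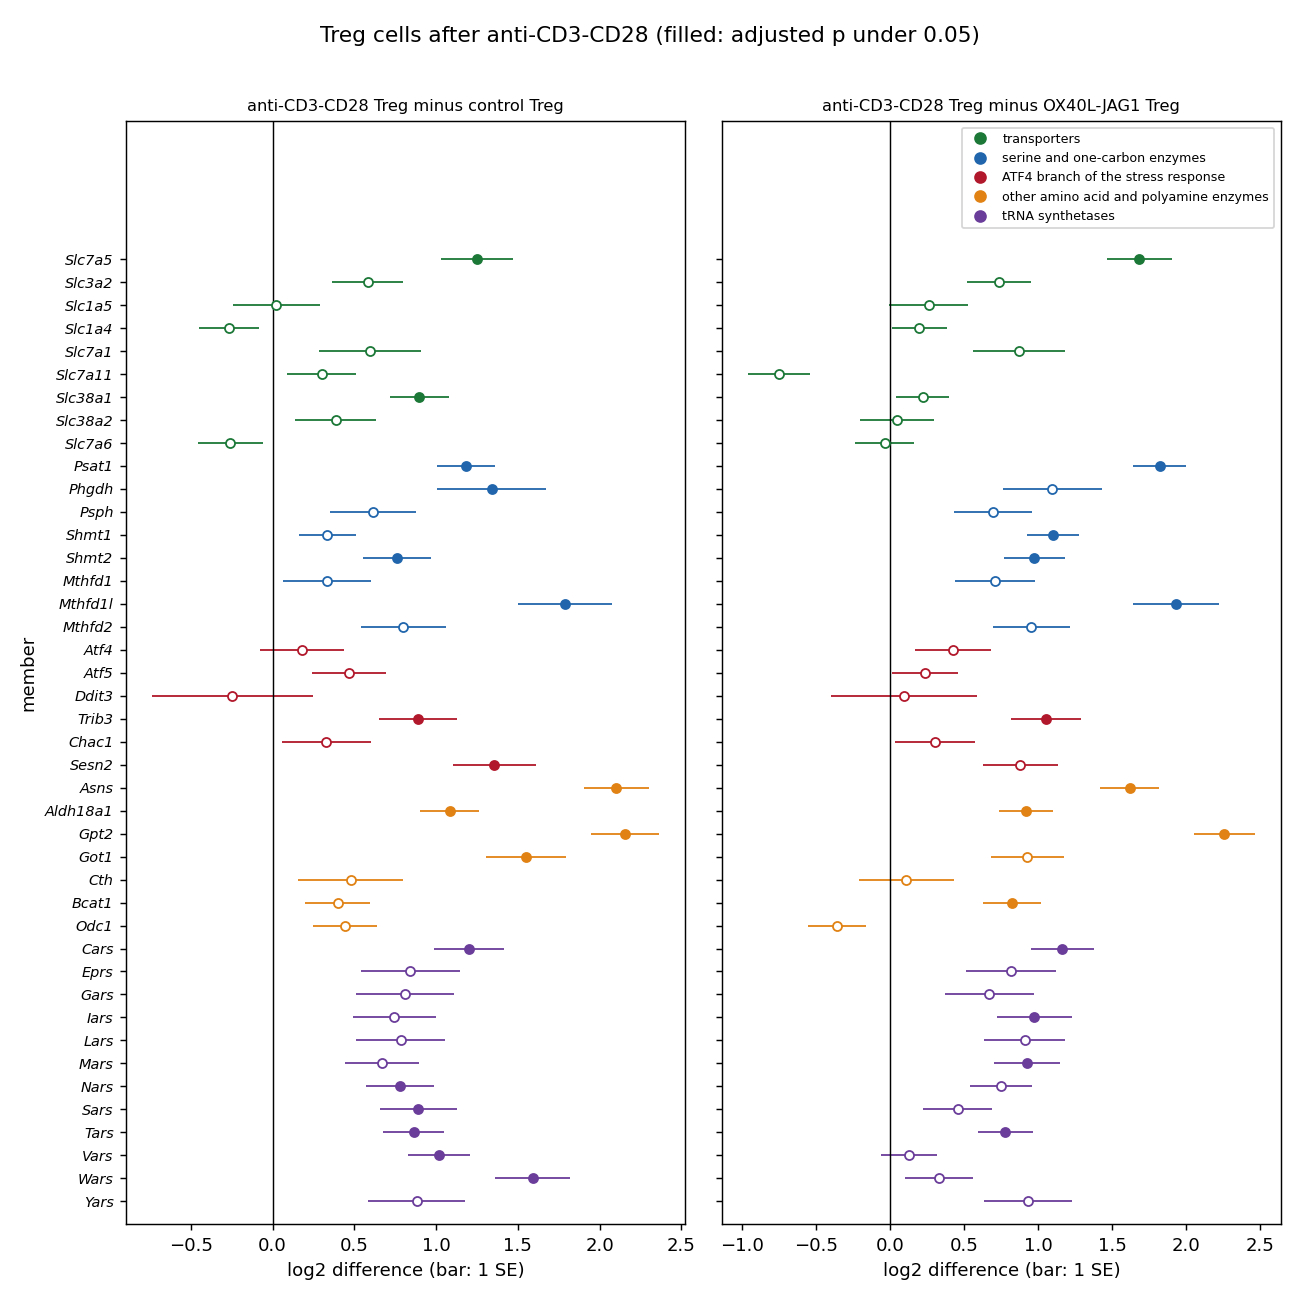
Log2 difference of each of the 42 genes (rows, coloured by class) in anti-CD3-CD28 Treg cells, against control Treg cells on the left and OX40L-JAG1 Treg cells on the right, 2 arrays a group. Bars are 1 SE and filled points have an adjusted p under 0.05; all 18 filled points on the left and all 14 on the right lie above 0.

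In Teff cells anti-CD3-CD28 changed genes of the set in both directions. From control Teff cells 6 genes rose and 3 fell, where 5.44% of all genes rose and 9.75% fell. The 3 that fell are transporters, and 0 of the 12 synthetases passed the test in limma (1, Iars, fell at an unadjusted p under 0.05). In the same comparison 5 of 9 T cell markers and 5 of 7 B cell markers fell. Their marker sums were 14.12 to 14.20 and 8.74 to 8.75 in control and 13.23 to 13.24 and 7.70 to 7.75 in anti-CD3-CD28 Teff cells. The part of these markers in the result was not tested. Psat1 and Asns passed in every alternative and with each array left out. The split was 7 and 2 after quantile normalization and 5 and 4 after median scaling, 10 and 2 after removal of the trend with level (where Treg cells had 8 and 10 calls after quantile normalization and removal of the trend), and 13 and 7 without the OX40L-JAG1 Teff arrays (12.5% and 16.5% of all genes). Fresh Treg cells differed from fresh Teff cells in 2 genes, Slc38a1 and Asns, both lower in Treg cells, with 0 higher (2.51% and 1.34% of all genes). Without the OX40L-JAG1 Teff arrays 16 were lower and 2, Ddit3 and Odc1, higher (8.93% and 5.59%), and after quantile normalization 0 passed. Of 7 B cell markers, 4 were lower and 0 higher in fresh Treg cells. Their sum was 7.86 to 8.205 there and 8.74 to 8.75 in fresh Teff cells. That of 5 platelet and erythroid markers was 7.18 to 7.26 and 9.84 to 9.94. That of 6 CD8 T and NK cell markers was 7.92 to 8.05 and 8.79 to 8.81. The part of these markers in the fresh comparison was not tested.

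OX40L-JAG1 Teff cells were low in most of the set. Against control Teff cells 26 genes were lower and 2 higher, where 26.9% and 20.0% of all genes were. The fit shares 1 spread over all groups and so understates that of these arrays. SEs and p-values of comparisons that use them may therefore be too small. With array weights 24 genes of the set were lower and 1 higher (3869 and 819 of all 22180 genes). After quantile normalization 8 were lower and 2 higher, and after removal of the trend with level 6 and 2; with quantile normalization 7 of the 28 passed again. The SD of the levels over genes was 1.71 and 1.49 on these arrays, against 1.95 to 2.19 on the other 10, and its part in the result was not tested. Against the same arrays, 30 genes were higher and 1 lower in anti-CD3-CD28 Teff cells (18.9% and 9.15% of all genes), of which 16 passed again after quantile normalization. In OX40L-JAG1 Treg cells 20 were higher and 2 lower than in OX40L-JAG1 Teff cells (24.6% and 16.5% of all genes), of which 4 passed again; with the trend of each array with level removed by loess, 3 were higher and 3 lower. With array weights 16 were higher and 0 lower in anti-CD3-CD28 than in OX40L-JAG1 Teff cells (1302 and 125 of all genes). In OX40L-JAG1 Treg against OX40L-JAG1 Teff cells they gave 10 higher and 0 lower (2776 and 361 of all genes). The OX40L-JAG1 Teff arrays also shift the median of all genes, by 0.18 against control Teff cells as deposited and by -0.06 after median scaling.

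**Figure D2:**
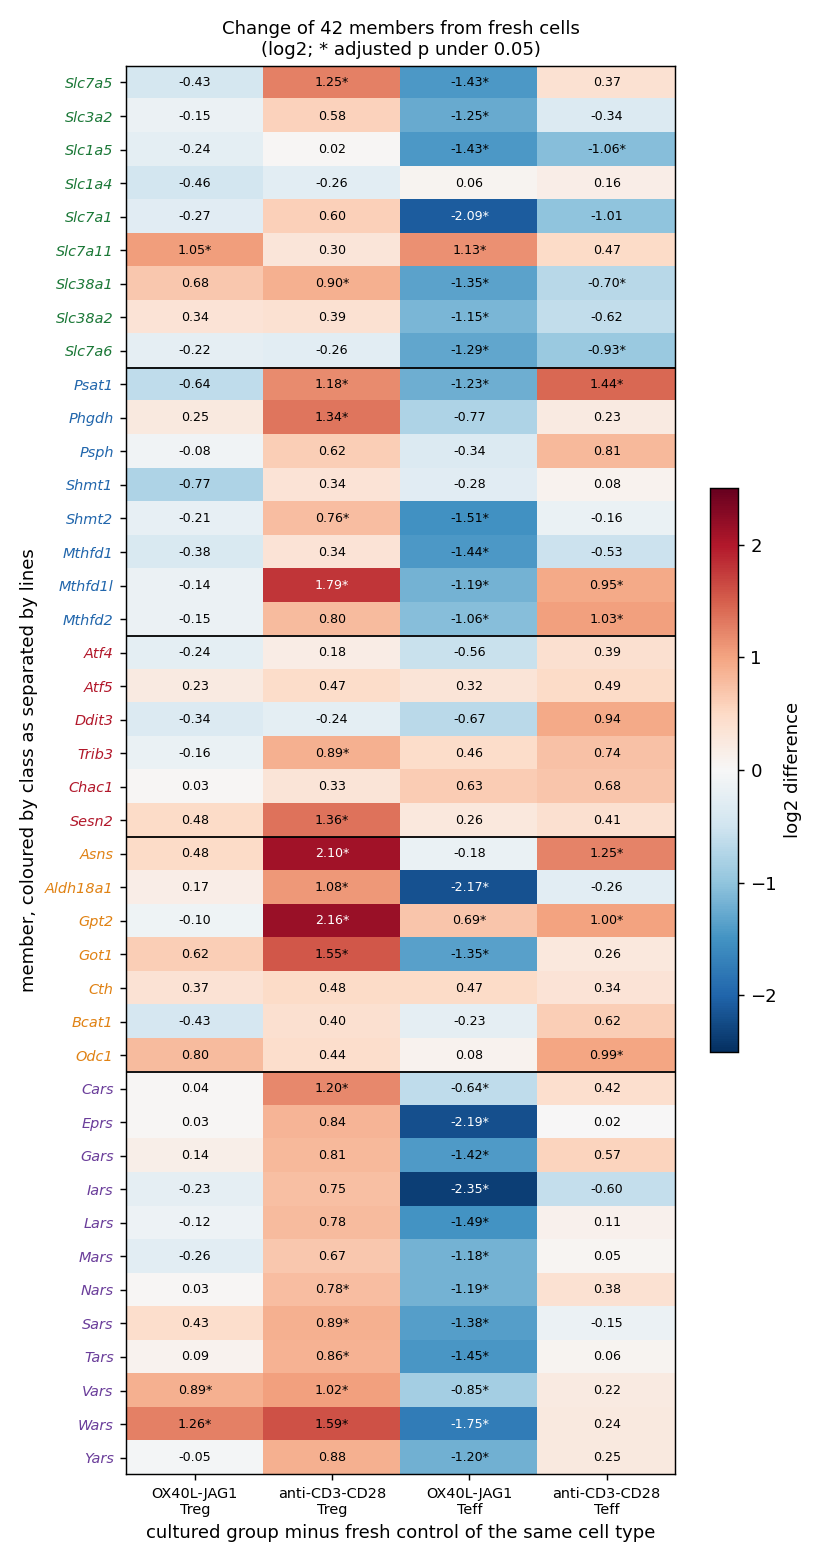
Log2 difference of each of the 42 genes (rows, in 5 classes separated by lines) between a cultured group and fresh cells of the same type (columns), 2 arrays a group, with an asterisk at an adjusted p under 0.05. The anti-CD3-CD28 Treg column holds 18 rises and 0 falls, and the OX40L-JAG1 Teff column 26 falls and 2 rises.

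The transporters bring amino acids across the plasma membrane. Slc7a5 and Slc3a2 encode the light and heavy chains of the large neutral amino acid exchanger LAT1, which carries leucine. Slc7a5 was at 8.60 and 8.59 in anti-CD3-CD28 Treg cells, 7.21 and 7.47 in control Treg cells and 6.77 and 7.05 in OX40L-JAG1 Treg cells. In Teff cells it was at 8.17 and 7.94 in control, 8.54 and 8.31 with anti-CD3-CD28, and 6.39 and 6.86 with OX40L-JAG1. The 3 Treg groups did not overlap. Fresh Treg cells were below fresh Teff cells, and anti-CD3-CD28 Treg cells differed from anti-CD3-CD28 Teff cells by 0.16 ± 0.22, which did not pass the test. The rise in Treg cells was 1.25 ± 0.22 (adjusted p = 0.00333), and 0.88 (adjusted p = 0.22) after quantile normalization. In Teff cells Slc7a5 differed by 0.37 ± 0.22 (adjusted p = 0.313).

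Slc3a2 was at 8.74 and 8.51 in control Treg cells, 8.58 and 8.36 with OX40L-JAG1, and 9.26 and 9.15 with anti-CD3-CD28. Its anti-CD3-CD28 arrays were above all other Treg arrays. Slc3a2 differed there by 0.58 ± 0.22 from control, which did not pass the test (adjusted p = 0.136) but passed without the OX40L-JAG1 Teff arrays. In Teff cells it was at 8.92 and 8.91 in control and at 8.50 and 8.65 with anti-CD3-CD28. Slc3a2 thus had its arrays in opposite order in the 2 cell types, with a Teff difference of -0.34 ± 0.22 (adjusted p = 0.361).

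Slc38a1 encodes a sodium-coupled glutamine carrier. It was at 9.46 and 9.56 in control Teff cells and at 8.65 and 8.51 in control Treg cells, without overlap, a difference of -0.93 ± 0.18 (adjusted p = 0.0136). With anti-CD3-CD28 it was at 9.48 and 9.47 in Treg cells and 8.75 and 8.88 in Teff cells. Slc38a1 therefore rose by 0.90 ± 0.18 in Treg cells and fell by 0.70 ± 0.18 in Teff cells, and the order of the 2 cell types was turned. After quantile normalization Slc38a1 passed neither in these changes nor between Treg and Teff cells, fresh or stimulated. With OX40L-JAG1 it was at 9.12 and 9.39 in Treg cells, above both control arrays, a difference of 0.68 ± 0.18 (adjusted p = 0.116, and 0.0248 without the OX40L-JAG1 Teff arrays).

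Slc7a1, the cationic carrier that brings in arginine and lysine, was at 7.49 and 7.54 in control Teff cells and at 6.43 and 6.57 with anti-CD3-CD28. In Treg cells it was at 6.72 and 6.83 in control, 6.35 and 6.64 with OX40L-JAG1 and 7.29 and 7.44 with anti-CD3-CD28. The arrays of the 2 cell types moved in opposite directions from control without overlap. Neither difference alone passed the test (adjusted p = 0.05 in Teff and 0.303 in Treg cells), while both passed without the OX40L-JAG1 Teff arrays. The difference between the responses passed with all arrays (1.61 ± 0.44, adjusted p = 0.0356). Slc1a5, a glutamine exchanger, and Slc7a6, part of a cationic exchanger, fell in anti-CD3-CD28 Teff cells by 1.06 ± 0.26 and 0.93 ± 0.20. In Treg cells they differed from control by 0.02 ± 0.26 and -0.26 ± 0.20. A second row of Slc1a5, left out for its lower mean, was at 6.24 in control and 6.04 in anti-CD3-CD28 Teff cells.

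Slc7a11, the cystine carrier xCT, was at 2.76 and 2.61 in control Treg cells, 3.999 and 3.47 with OX40L-JAG1 and 2.98 and 2.99 with anti-CD3-CD28. It was at 3.82 and 3.95 in OX40L-JAG1 Teff cells and at 2.73 and 2.77 in control Teff cells. Both OX40L-JAG1 groups were above all other arrays, and both passed the test against control (adjusted p = 0.0324 in Treg cells). The Treg call was lost with the replicate block (adjusted p = 0.0501) and with 1 of 9 arrays left out (adjusted p = 0.0505 to 0.266). All of these levels are below 4.87, the lowest array median, so no size is given for either difference. A second row of Slc7a11 was at 2.80 in control and 2.52 in OX40L-JAG1 Treg cells, and with the mean of both rows the Treg difference did not pass (adjusted p = 0.555). The 2 groups in which Slc7a11 was high are those with high neutrophil and basophil marker sums. They are also the 2 OX40L-JAG1 groups, so culture and other cells cannot be told apart here. Of the remaining carriers, Slc1a4 was below 4.87 in all 6 groups. The glutamine carrier Slc38a2 differed by 0.39 ± 0.25 in Treg and -0.62 ± 0.25 in Teff cells with anti-CD3-CD28. Its Teff difference passed without the OX40L-JAG1 Teff arrays.

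**Figure D3:**
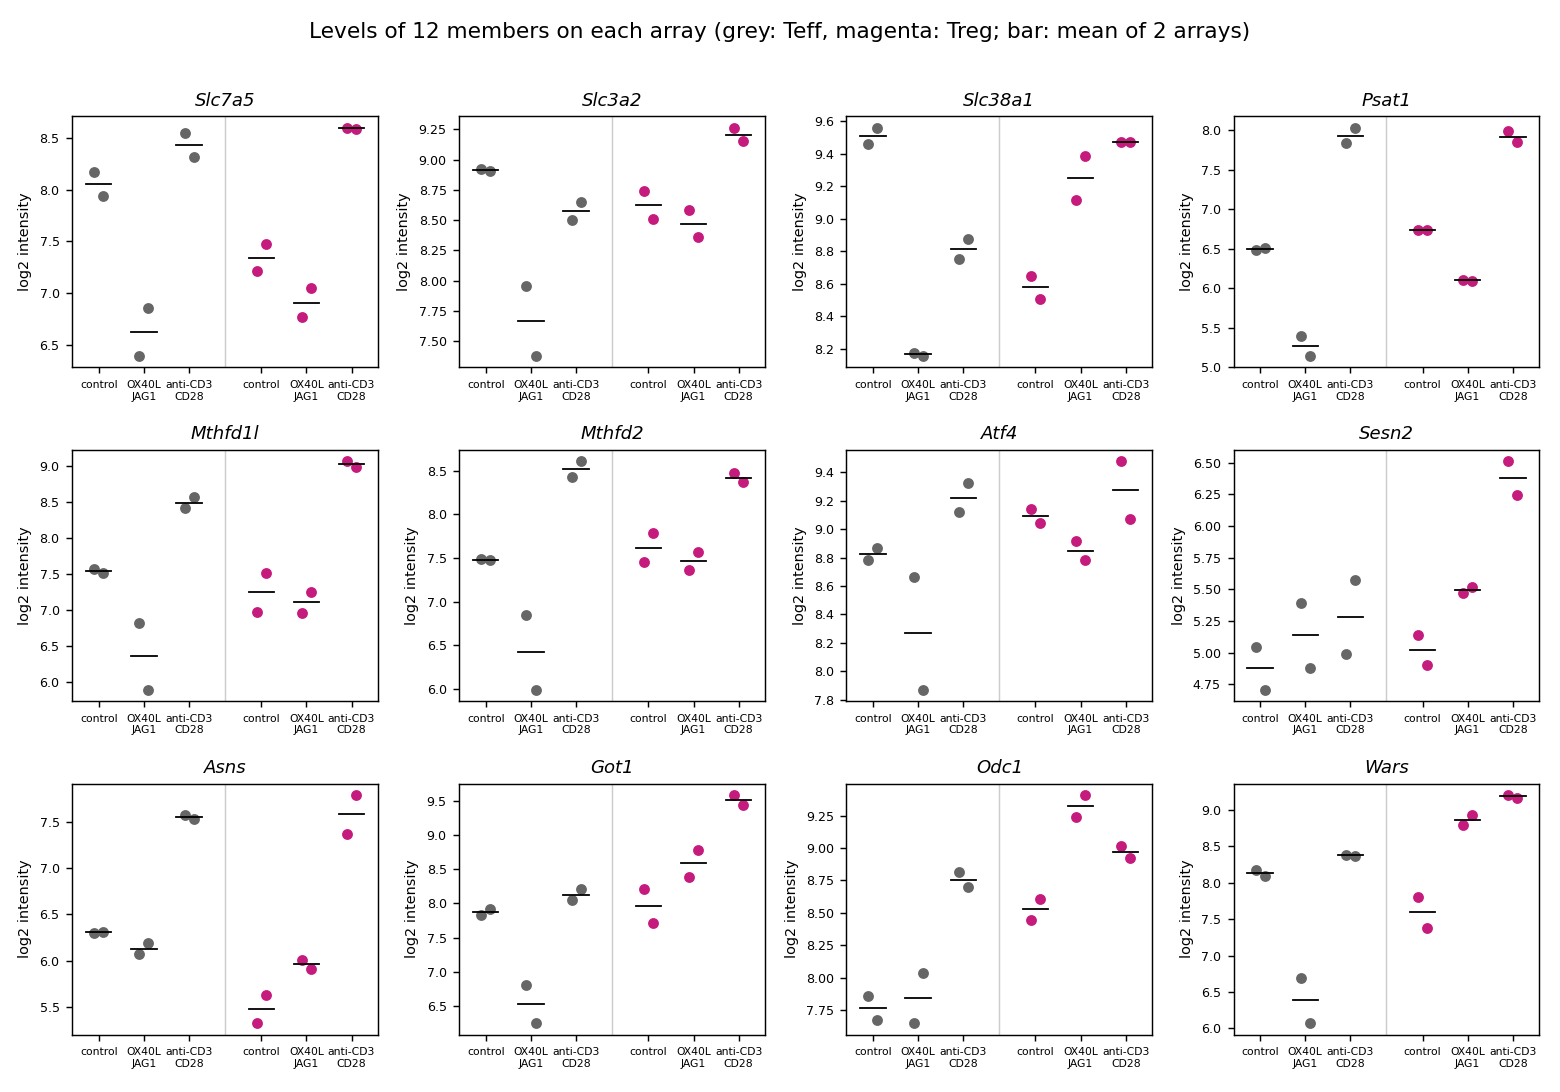
Log2 intensity of 12 genes of the set on each of the 12 arrays (points, grey for Teff and magenta for Treg cells; bars are means of 2 arrays; each panel has its own axis). Slc7a5, Mthfd1l, Sesn2 and Got1 were highest in anti-CD3-CD28 Treg cells, Odc1 in OX40L-JAG1 Treg cells and Psat1 in both anti-CD3-CD28 groups.

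Serine is made from a glycolytic intermediate by Phgdh, Psat1 and Psph in turn, and its carbon enters the folate cycle through Shmt1 in the cytosol and Shmt2 in mitochondria. Of the 8 genes of this class, 4 rose and 0 fell with anti-CD3-CD28 in Treg cells (8.08% and 1.97% of all genes), and 3 rose and 0 fell in Teff cells (5.44% and 9.75% of all genes). Psat1 was at 6.74 and 6.74 in control Treg cells, 6.11 and 6.09 with OX40L-JAG1 and 7.99 and 7.85 with anti-CD3-CD28. In Teff cells it was at 6.48 and 6.51 in control, 5.40 and 5.14 with OX40L-JAG1, and 7.83 and 8.03 with anti-CD3-CD28. Psat1 was high in both anti-CD3-CD28 groups and lowest in each cell type with OX40L-JAG1, with no overlap within a cell type. It rose by 1.18 ± 0.18 in Treg cells (adjusted p = 0.00126) and 1.44 ± 0.18 in Teff cells (adjusted p = 0.000351), and both rises passed with quantile normalization and with each array left out.

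Phgdh, the first enzyme of the route, was at 5.77 and 5.91 in control, 6.13 and 6.05 in OX40L-JAG1 and 7.37 and 6.999 in anti-CD3-CD28 Treg cells. Its arrays with anti-CD3-CD28 were above all other Treg arrays. Phgdh rose by 1.34 ± 0.33 in Treg cells (adjusted p = 0.0259) and differed by 0.23 ± 0.33 in Teff cells. The Treg rise of Phgdh did not pass after quantile normalization. The difference between the responses was 1.11 ± 0.47 and did not pass (adjusted p = 0.147), but passed without the OX40L-JAG1 Teff arrays. Psph, which releases serine, differed by 0.62 ± 0.26 in Treg and 0.81 ± 0.26 in Teff cells. Neither passed the test with all arrays, and both passed without the OX40L-JAG1 Teff arrays.

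Of the mitochondrial enzymes of the folate cycle, Mthfd1l and Shmt2 were higher in anti-CD3-CD28 Treg cells than in both other Treg groups, and Mthfd2 passed in neither comparison. Mthfd1l, which makes formate for export to the cytosol, was at 6.97 and 7.52 in control, 6.96 and 7.25 in OX40L-JAG1 and 9.07 and 8.996 in anti-CD3-CD28 Treg cells. It rose by 1.79 ± 0.29 in Treg cells (adjusted p = 0.002) and, from 7.57 and 7.51 to 8.42 and 8.57, by 0.95 ± 0.29 in Teff cells (adjusted p = 0.0474). The Teff rise of Mthfd1l passed after quantile normalization but not in every alternative. Mthfd2, the mitochondrial dehydrogenase of the same route, was at 7.49 and 7.48 in control and 8.42 and 8.61 in anti-CD3-CD28 Teff cells, a rise of 1.03 ± 0.26. In Treg cells Mthfd2 was at 7.45 and 7.79 in control and 8.47 and 8.37 with anti-CD3-CD28; the arrays did not overlap, and the difference of 0.80 ± 0.26 did not pass (adjusted p = 0.0839, and 0.00445 without the OX40L-JAG1 Teff arrays). Shmt2 rose by 0.76 ± 0.21 in Treg cells and differed by -0.16 ± 0.21 in Teff cells. After quantile normalization Shmt2 in anti-CD3-CD28 Treg cells passed against neither other Treg group.

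Of the cytosolic enzymes, Shmt1 was at 6.03 and 6.17 in control, 5.23 and 5.43 in OX40L-JAG1 and 6.38 and 6.48 in anti-CD3-CD28 Treg cells. The 3 groups did not overlap. Shmt1 was 1.10 ± 0.17 higher with anti-CD3-CD28 than with OX40L-JAG1 (adjusted p = 0.00273), while the difference of OX40L-JAG1 from control was -0.77 ± 0.17 (adjusted p = 0.0618, and 0.0101 without the OX40L-JAG1 Teff arrays). Mthfd1, the cytosolic folate enzyme, differed from control by 0.34 ± 0.27 in Treg and -0.53 ± 0.27 in Teff cells with anti-CD3-CD28. Its Teff difference passed without the OX40L-JAG1 Teff arrays.

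The ATF4 branch of the stress response includes the transcription factors Atf4, Atf5 and Ddit3 and genes they act on. Atf4 was at 9.14 and 9.04 in control, 8.92 and 8.78 in OX40L-JAG1 and 9.48 and 9.07 in anti-CD3-CD28 Treg cells, and at 8.79 and 8.87 in control, 8.67 and 7.87 in OX40L-JAG1 and 9.12 and 9.32 in anti-CD3-CD28 Teff cells. The anti-CD3-CD28 and control Treg arrays overlapped, and the differences of 0.18 ± 0.26 in Treg and 0.39 ± 0.26 in Teff cells did not pass the test. After quantile normalization the Treg difference turned to -0.13. These are mRNA levels, and the ATF4 protein was not measured.

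Of the 6 genes of this branch, 2 rose and 0 fell with anti-CD3-CD28 in Treg cells (8.08% and 1.97% of all genes). In Teff cells 0 rose and 0 fell in limma (5.44% and 9.75% of all genes), where 2 were higher at an unadjusted p under 0.05. All 6 were above control in Teff cells. Without the OX40L-JAG1 Teff arrays 4 (Atf5, Ddit3, Trib3 and Chac1) rose and 0 fell in Teff cells (12.5% and 16.5% of all genes). In Treg cells 2 rose and 0 fell in that fit (14.8% and 6.75% of all genes). Sesn2, a leucine sensor that holds mTORC1 in check, was at 5.14 and 4.90 in control, 5.47 and 5.52 in OX40L-JAG1 and 6.51 and 6.25 in anti-CD3-CD28 Treg cells. It was at 5.04 and 4.71 in control and 4.99 and 5.57 in anti-CD3-CD28 Teff cells. The anti-CD3-CD28 Treg arrays lay above all others. Sesn2 rose by 1.36 ± 0.25 (adjusted p = 0.005) and was 1.10 ± 0.25 above anti-CD3-CD28 Teff cells (adjusted p = 0.0178). Neither of these differences passed after quantile normalization. Trib3, a pseudokinase that feeds back on ATF4, was at 5.58 and 5.71 in control, 5.22 and 5.75 in OX40L-JAG1 and 6.82 and 6.25 in anti-CD3-CD28 Treg cells, a rise of 0.89 ± 0.24 (adjusted p = 0.0363). Both anti-CD3-CD28 Treg arrays of Trib3 were above the other Treg arrays, and its rise did not pass after quantile normalization. The Teff difference of Trib3 was 0.74 ± 0.24 (adjusted p = 0.0611).

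Ddit3, the stress transcription factor CHOP, had another order. It was at 7.49 and 7.61 in control Treg cells and 6.69 and 6.57 in control Teff cells, and at 7.12 and 7.48 and at 7.63 and 7.51 with anti-CD3-CD28. Fresh Teff cells were below the other 3 groups without overlap, and Treg cells differed from them by 0.92 ± 0.49 when fresh (adjusted p = 0.407). The SE of Ddit3 rests on the OX40L-JAG1 Teff arrays, at 7.02 and 4.90; without them the SE of the fresh comparison was 0.18 and its adjusted p 0.0067. Chac1, a glutathione-degrading enzyme, was below 4.87 in 4 of the 6 groups.

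The other enzymes make or exchange amino acids and polyamines. Of the 7 measured, 4 rose and 0 fell with anti-CD3-CD28 in Treg cells (8.08% and 1.97% of all genes), and 3 rose and 0 fell in Teff cells (5.44% and 9.75% of all genes). Asns, asparagine synthetase, was at 5.33 and 5.63 in control, 6.01 and 5.91 in OX40L-JAG1 and 7.37 and 7.79 in anti-CD3-CD28 Treg cells. Teff cells had Asns at 6.30 and 6.31 in control, 6.07 and 6.19 with OX40L-JAG1, and 7.57 and 7.53 with anti-CD3-CD28. Fresh Treg cells were the lowest group, 0.83 ± 0.20 below fresh Teff cells (adjusted p = 0.0437), and the 2 anti-CD3-CD28 groups overlapped at the top, 0.03 ± 0.20 apart. The Asns rise was 2.10 ± 0.20 in Treg cells (adjusted p = 4.72e-05) and 1.25 ± 0.20 in Teff cells (adjusted p = 0.00158). The difference between them, 0.86 ± 0.28, did not pass (adjusted p = 0.0693), but passed without the OX40L-JAG1 Teff arrays.

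Gpt2, the mitochondrial alanine transaminase, was at 4.19 and 4.24 in control, 4.12 and 4.10 in OX40L-JAG1 and 6.62 and 6.12 in anti-CD3-CD28 Treg cells. Its control levels lie below the lowest array median, so the rise is best read as at least 2.83-fold, the mean of the anti-CD3-CD28 arrays against that median of 4.87. In Teff cells Gpt2 was at 4.19 and 4.16 in control and 5.06 and 5.29 with anti-CD3-CD28, and Treg cells ended 1.20 ± 0.21 higher than Teff cells (adjusted p = 0.0044). Got1, the cytosolic aspartate transaminase, was at 8.21 and 7.72 in control, 8.38 and 8.79 in OX40L-JAG1 and 9.59 and 9.44 in anti-CD3-CD28 Treg cells. Teff cells had Got1 at 7.83 and 7.92 in control and 8.05 and 8.21 with anti-CD3-CD28. Got1 rose by 1.55 ± 0.25 in Treg cells (adjusted p = 0.0018), differed by 0.26 ± 0.25 in Teff cells, and was 1.38 ± 0.25 higher in stimulated Treg than Teff cells (adjusted p = 0.00513).

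Aldh18a1, which opens proline synthesis from glutamate, was at 7.28 and 7.16 in control, 7.32 and 7.46 in OX40L-JAG1 and 8.34 and 8.27 in anti-CD3-CD28 Treg cells. Teff cells had Aldh18a1 at 7.77 and 7.73 in control, 5.71 and 5.45 with OX40L-JAG1 and 7.39 and 7.59 with anti-CD3-CD28. The anti-CD3-CD28 Treg arrays were above all others. Aldh18a1 rose by 1.08 ± 0.18 there (adjusted p = 0.00254) and differed by -0.26 ± 0.18 in Teff cells. The fall in OX40L-JAG1 Teff cells, 2.17 ± 0.18, is one of 5 falls on those arrays (with Slc7a1, Eprs, Iars and Wars) that passed in every alternative fit. Odc1, ornithine decarboxylase, the first enzyme of polyamine synthesis, was at 8.45 and 8.61 in control, 9.24 and 9.41 in OX40L-JAG1 and 9.02 and 8.92 in anti-CD3-CD28 Treg cells. Teff cells had Odc1 at 7.86 and 7.67 in control, 7.65 and 8.04 with OX40L-JAG1 and 8.81 and 8.70 with anti-CD3-CD28. Odc1 is the 1 gene of the set with its highest mean in OX40L-JAG1 Treg cells, 0.80 ± 0.20 above control (adjusted p = 0.0847, and 0.00968 without the OX40L-JAG1 Teff arrays), and it rose by 0.99 ± 0.20 in anti-CD3-CD28 Teff cells (adjusted p = 0.00543). Bcat1, which transaminates branched-chain amino acids, was at least 1.71-fold higher in anti-CD3-CD28 than in OX40L-JAG1 Treg cells (means 5.65 and 4.82, the latter below 4.87; adjusted p = 0.0313), and Cth, of cysteine synthesis, was below 4.87 in all groups.

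The tRNA synthetases join each amino acid to its tRNA. All 12 measured were above control in anti-CD3-CD28 Treg cells, by 0.67 to 1.59 as deposited and by 0.31 to 1.22 after quantile normalization, and 6 passed the test (8.08% of all genes rose): Cars, Nars, Sars, Tars, Vars and Wars, which load cysteine, asparagine, serine, threonine, valine and tryptophan. Without the OX40L-JAG1 Teff arrays all 12 passed, and with quantile normalization 2, Cars and Wars, did. In anti-CD3-CD28 Teff cells the 12 differed from control by -0.60 to 0.57, and 0 passed with all arrays. Without the OX40L-JAG1 Teff arrays Gars rose and Iars fell. In fresh Treg cells the 12 differed from fresh Teff cells by -0.82 to -0.13. Of these, 0 passed in limma, 5 did at an unadjusted p under 0.05, and 6 passed without the OX40L-JAG1 Teff arrays. After quantile normalization Gars and Tars turned above 0. The mean level of the 12 as deposited was 7.62 in control Treg, 8.11 in control Teff, 8.24 in anti-CD3-CD28 Teff and 8.54 in anti-CD3-CD28 Treg cells. After quantile normalization 4 of the 12 had a higher mean in anti-CD3-CD28 Treg than in anti-CD3-CD28 Teff cells, and 8 a lower one.

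Wars, which is also induced by interferon-gamma, was at 7.80 and 7.38 in control, 8.79 and 8.92 in OX40L-JAG1 and 9.20 and 9.16 in anti-CD3-CD28 Treg cells. Teff cells had Wars at 8.18 and 8.10 in control, 6.70 and 6.07 with OX40L-JAG1 and 8.38 and 8.37 with anti-CD3-CD28. The 3 Treg groups did not overlap, and both cultured Treg groups were above every Teff array. Wars rose by 1.26 ± 0.23 with OX40L-JAG1 (adjusted p = 0.0199) and 1.59 ± 0.23 with anti-CD3-CD28 (adjusted p = 0.000934) in Treg cells. The OX40L-JAG1 rise of Wars passed in every alternative on whole groups and not when 1 of its own 4 arrays was left out (adjusted p = 0.056 to 0.221). Its OX40L-JAG1 Treg arrays were 2.47 ± 0.23 above the OX40L-JAG1 Teff arrays. The neutrophil and other myeloid marker sum was 11.07 to 11.31 in these Treg cells and 12.23 to 13.43 in these Teff cells. The T cell marker sum was 13.71 to 13.74 and 12.14 to 12.93. The part of these marker differences in the Wars gap was not tested.

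Vars was at 7.47 and 7.28 in control, 8.30 and 8.23 in OX40L-JAG1 and 8.58 and 8.22 in anti-CD3-CD28 Treg cells. The 2 cultured groups overlapped, and both lay above control, by 0.89 ± 0.19 and 1.02 ± 0.19; with quantile normalization the OX40L-JAG1 difference was 0.76 (adjusted p = 0.238), and with 1 of 10 arrays left out its adjusted p was 0.0683 to 0.333. Tars was at 7.82 and 7.94 in control, 7.85 and 8.08 in OX40L-JAG1 and 8.69 and 8.79 in anti-CD3-CD28 Treg cells. Here OX40L-JAG1 overlapped with control and anti-CD3-CD28 stood above both, by 0.86 ± 0.18 over control and 0.78 ± 0.18 over OX40L-JAG1. Cars was at 5.99 and 5.64 in control, 5.92 and 5.78 in OX40L-JAG1 and 6.85 and 7.18 in anti-CD3-CD28 Treg cells, the same order, with a rise of 1.20 ± 0.21 (adjusted p = 0.00352). Gars was at 8.69 and 8.51 in control and 9.32 and 9.50 in anti-CD3-CD28 Treg cells, a gap of 0.81 ± 0.30 between groups that did not overlap and did not pass (adjusted p = 0.13). Iars, for isoleucine, was at 8.99 and 9.11 in control and 8.24 and 8.67 in anti-CD3-CD28 Teff cells, and at 8.36 and 8.26 in control and 8.98 and 9.13 in anti-CD3-CD28 Treg cells. Its arrays moved down in Teff and up in Treg cells, and the responses differed by 1.34 ± 0.36 (adjusted p = 0.0311).

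The log2 change from fresh cells with anti-CD3-CD28 was higher in Treg than in Teff cells for 7 of the 42 genes and lower for 0, where it was higher for 10.1% of all genes and lower for 2.94%. The 7 were Slc7a1, Slc38a1, Aldh18a1, Gpt2, Got1, Iars and Wars. All 7 were above control in Treg cells, 4 (Slc7a1, Slc38a1, Aldh18a1 and Iars) were below control in Teff cells, and Slc7a1 had the larger change in size in Teff cells. The count was 0 after quantile normalization (28 of 42 differences above 0), 17 after median scaling, and, without the OX40L-JAG1 Teff arrays, 23 higher and 1 (Ddit3) lower (20.0% and 11.0% of all genes). Between the stimulated cells themselves, 7 genes were higher in Treg than in Teff cells and 0 lower (9.03% and 2.89% of all genes), namely Slc38a1, Sesn2, Aldh18a1, Gpt2, Got1, Tars and Wars. The median of all genes here was -0.05 as deposited and 0.10 after median scaling, and that of the 42 genes 0.23 and 0.37. After quantile normalization the median of the 42 genes turned to -0.09, with 18 differences above 0 and 24 below. It was -0.04 with the trend of each array with level removed by loess. Without the OX40L-JAG1 Teff arrays 13 were higher and 0 lower (18.2% and 10.4%), a share of the set that lies above that of all genes; with quantile normalization 2 of the 7, Gpt2 and Got1, passed. The 5 markers of Treg cells (Foxp3, Il2ra, Ikzf2, Ctla4 and Lrrc32) had a marker sum of 11.94 to 12.06 in anti-CD3-CD28 Teff cells, against 8.59 to 8.68 in control Teff cells. Il2ra, the brightest of them there, was at 11.36 and 11.47 in anti-CD3-CD28 Teff cells, against 6.64 and 6.895 in control Teff cells. Ctla4 was at 9.77 and 9.84 against 6.15 and 5.99, and Lrrc32 at 7.89 and 8.15 against 4.42 and 4.57. Ikzf2 was at 7.31 and 7.57 against 7.14 and 7.26. Foxp3 was at 5.58 and 5.72 in anti-CD3-CD28 Teff cells and at 5.66 and 5.66 in control Teff cells.

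**Figure D4:**
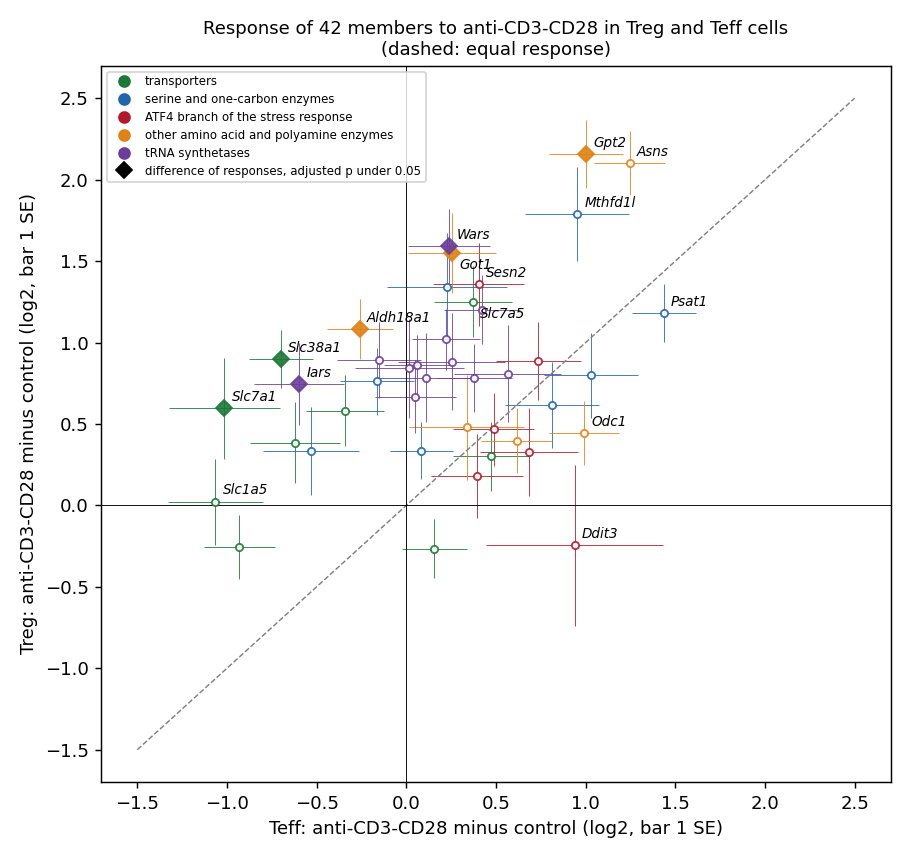
Response to anti-CD3-CD28 (log2 difference from fresh cells of the same type) of the 42 genes in Teff cells (horizontal) and Treg cells (vertical), coloured by class, with bars of 1 SE. Diamonds mark the 7 genes whose responses differ at an adjusted p under 0.05. All 7 lie above the dashed line of equal response. Of the 42 genes, 31 lie above it and 11 below it, Psat1 and Ddit3 among the latter.

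The log2 change from fresh cells with OX40L-JAG1 was higher in Treg than in Teff cells for 20 of the 42 genes and lower for 0 (21.3% and 10.2% of all genes). All 20 were below control in Teff cells, and the change was larger in size in Teff cells for 19 of them. These rest on the OX40L-JAG1 Teff arrays, and 3 of the 20, Aldh18a1, Iars and Wars, passed after quantile normalization. With the trend of each array with level removed by loess, 4 were higher and 1 lower. The 20 were 7 transporters, Shmt2, Aldh18a1, Got1 and 10 synthetases.

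**Figure D5:**
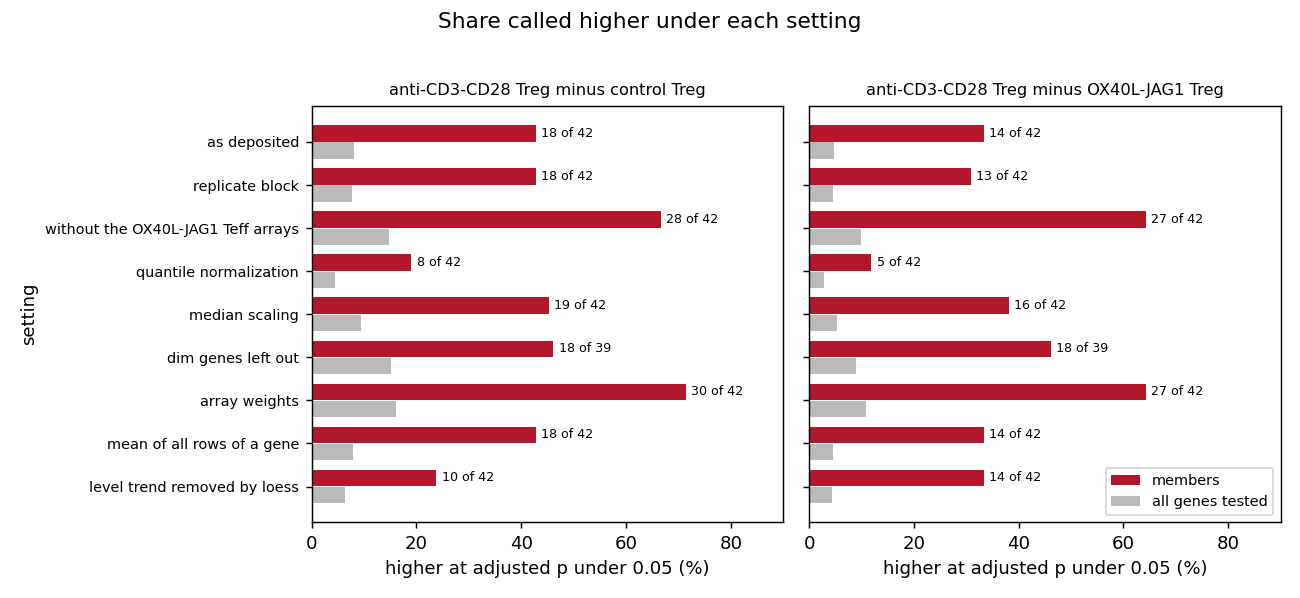
Percent of the set (red, with counts) and of all genes tested (grey) called higher at an adjusted p under 0.05 in anti-CD3-CD28 Treg cells, against control Treg (left) and OX40L-JAG1 Treg cells (right), under each way of processing. Against control the count runs from 8 of 42 with quantile normalization to 30 of 42 with array weights, and the red bar is longer than the grey one throughout.

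Related genes outside the set did not all follow it. Of 16 measured stress genes around eIF2alpha, 7 rose and 1 fell in anti-CD3-CD28 Treg cells (8.08% and 1.97% of all genes), and 5 rose and 1 fell in Teff cells (5.44% and 9.75% of all genes). The rises were led by Vldlr, a lipoprotein receptor known as an ATF4 target (2.67 ± 0.35), Jdp2, a bZIP repressor (2.32 ± 0.34), and Eif4ebp1, a translation inhibitor (2.14 ± 0.39). In Teff cells Vldlr and Eif4ebp1 rose as well, by 1.95 ± 0.35 and 1.83 ± 0.39, and Jdp2 differed by 0.60 ± 0.34. Ppp1r15a, the phosphatase subunit GADD34 that reverses eIF2alpha phosphorylation, fell by 1.68 ± 0.23 in OX40L-JAG1 Treg cells, the 1 gene of this list that passed there (0.996% of all genes rose and 0.559% fell). In OX40L-JAG1 Teff cells 0 genes of the list rose and 8 fell, Ppp1r15a among them (20.0% and 26.9% of all genes).

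Of 16 mitochondrial synthetases, 1 rose (Iars2, 0.71 ± 0.18) and 2 fell (Ears2, -0.77 ± 0.19, and Mars2, -0.72 ± 0.17) in anti-CD3-CD28 Treg cells (8.08% and 1.97% of all genes). In Teff cells 0 rose and 7 fell (5.44% and 9.75% of all genes), Nars2 the most (-1.25 ± 0.17). Of 8 other cytosolic synthetases and scaffold genes, 2 rose in Treg cells, Rars by 0.78 ± 0.18 and Qars by 0.70 ± 0.17, and 0 passed in Teff cells. Of 20 other amino acid carriers, 1 rose in Treg cells, the mitochondrial aspartate-glutamate carrier Slc25a12 (0.82 ± 0.22), a share below that of all genes. In Teff cells 0 rose and 8 fell, Slc16a10, an aromatic amino acid carrier, by 2.14 ± 0.22. The difference between the lists was not tested.

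Of 17 folate and methionine cycle genes, 2 rose and 0 fell in anti-CD3-CD28 Treg cells, a share near that of all genes (8.08% and 1.97% of all genes): Ahcy, which clears S-adenosylhomocysteine, by 2.15 ± 0.19, and Tyms, thymidylate synthase, by 1.14 ± 0.25. Both rose in Teff cells too, by 1.25 ± 0.19 and 1.13 ± 0.25, where 2 others of the list fell (5.44% and 9.75% of all genes). Of 9 polyamine genes, 1 rose and 0 fell in Treg cells, and 1 rose and 3 fell in Teff cells. Smox, spermine oxidase, rose in both (0.79 ± 0.22 in Treg and 1.00 ± 0.22 in Teff cells), while Srm, spermidine synthase, fell by 1.00 ± 0.19 in Teff cells. Among 15 glutamine, proline, arginine and branched-chain genes, Glud1, glutamate dehydrogenase, rose by 1.09 ± 0.21 and Got2, the mitochondrial partner of Got1, by 0.94 ± 0.18 in Treg cells, where 0 fell, while 0 rose and 2 fell in Teff cells. Of 27 genes of amino acid sensing by mTORC1, 3 rose and 0 fell in anti-CD3-CD28 Treg cells, also near the share of all genes: the arginine sensor Castor1 (1.48 ± 0.25), its relative Castor2 (1.33 ± 0.24), and Wdr59 (1.42 ± 0.21), a subunit of the GATOR complex that relays amino acid supply. In Teff cells 1 rose and 7 fell. In OX40L-JAG1 Treg cells 1 rose, Flcn, folliculin, by 1.00 ± 0.18, and 0 fell (0.996% and 0.559% of all genes).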

How the data were processed

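Total RNA of 12 samples was labelled with the GeneChip WT PLUS kit and measured on 1 array each. The authors deposited log2 intensities made with RMA, per the submitters' processing notes. The RMA version is not stated in these sources. The table holds 41345 rows, of which 23521 have exactly 1 gene symbol in the array's probe table; a gene on more than 1 row was represented by its brightest row on average, leaving 22180 genes. Symbols were updated by Entrez ID through RefSeq (GRCm38.p6), and Mars is listed there as Mars1.

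A model with 1 mean per group over all 12 arrays (6 residual degrees of freedom) was fitted with limma 3.58.1 (R 4.3.3) and eBayes, with two-sided Benjamini-Hochberg adjusted p-values over all genes and a threshold of 0.05. The set, the related lists and the marker lists were chosen with earlier results of these data known. Alternatives were the replicate set as a block, the OX40L-JAG1 Teff arrays left out, quantile normalization, median scaling, dim genes left out, array weights, the mean of all rows, each array left out and, added after seeing the data, the trend with level removed by loess (span 0.5). The differences between replicates gave 15 correlations between groups, from -0.0693 to 0.182, so the replicate numbers were not taken as pairs. Per-array values are given for genes past the threshold in some comparison whose arrays do not overlap, by range over the group means within each class, and for Atf4, Slc7a5, Slc3a2 and Asns; up to 3 genes are named of each related list. Per-array values of further genes were added after their values were seen. The fit was also run on simulated data in which known genes were changed. There every group had the same spread for a gene, so the wider spread of the OX40L-JAG1 Teff arrays was not covered. Depth does not apply to arrays; their number limits the precision.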

Additional observations from a re-analysis of the deposited data

Results flagged for a closer look

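Responses that differed between Treg and Teff cells are listed here, as the log2 change from fresh cells in Treg cells minus that in Teff cells, each with an adjusted p under 0.05 in limma over 22180 genes. For anti-CD3-CD28 the difference was 1.61 for Slc7a1, 1.60 for Slc38a1, 1.34 for Aldh18a1, 1.16 for Gpt2, 1.29 for Got1, 1.34 for Iars and 1.35 for Wars. Of these 7, 0 passed after quantile normalization and 3 after the trend with level was removed.

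For OX40L-JAG1 the difference was 1.00 for Slc7a5, 1.10 for Slc3a2, 1.19 for Slc1a5, 1.81 for Slc7a1, 2.02 for Slc38a1, 1.49 for Slc38a2 and 1.07 for Slc7a6 among the transporters. It was 2.22 for Eprs, 1.56 for Gars, 2.12 for Iars, 1.37 for Lars, 0.92 for Mars, 1.22 for Nars, 1.81 for Sars, 1.53 for Tars, 1.74 for Vars and 3.02 for Wars among the synthetases, and 1.30 for Shmt2, 2.34 for Aldh18a1 and 1.98 for Got1 among the enzymes. All of these OX40L-JAG1 values use the OX40L-JAG1 Teff arrays, which stood apart from the other 10, and 3 of the 20 (Aldh18a1, Iars and Wars) passed after quantile normalization.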

How the results depend on the processing

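The counts of genes called in the 11 comparisons moved with several choices, and the cause was not tested. They stood at 2 (control Treg minus Teff), 3, 18 and 14 (OX40L-JAG1 Treg minus control Treg, anti-CD3-CD28 Treg minus control Treg and minus OX40L-JAG1 Treg), 28, 9 and 31 (OX40L-JAG1 Teff minus control Teff, anti-CD3-CD28 Teff minus control Teff and minus OX40L-JAG1 Teff), 22 and 7 (Treg minus Teff with OX40L-JAG1 and with anti-CD3-CD28), and 20 and 7 (the differences of response to OX40L-JAG1 and to anti-CD3-CD28). In that order, without the OX40L-JAG1 Teff arrays they were 18, 7, 28 and 28, 20 for anti-CD3-CD28 Teff minus control Teff, 13 for stimulated Treg minus Teff and 24 for the difference of response. With quantile normalization they were 0, 2, 8, 5, 10, 9, 16, 5, 2, 3 and 0. Removing the trend of each array with level by loess, chosen after seeing the data, gave 0, 4, 10, 14, 8, 12, 15, 6, 3, 5 and 3. Array weights gave 20, 7, 30, 28, 20 for anti-CD3-CD28 Teff minus control Teff, 16 for minus OX40L-JAG1 Teff, 10, 13 and 24 for the last response. Median scaling gave 11 for stimulated Treg minus Teff and 17 for the response to anti-CD3-CD28, and leaving out dim genes gave 13 for that response.

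With 1 array left out at a time the counts ran, in the same order, from 0 to 18, 0 to 7, 8 to 28, 7 to 28, 26 to 34, 2 to 20, 21 to 33, 12 to 29, 0 to 13, 13 to 29 and 2 to 24. The highest count in each came without OX40L-JAG1 Teff replicate 1; without its replicate B the count was the same in the comparisons that use neither array (18, 7, 28, 28, 20, 13 and 24). Against control Treg cells, anti-CD3-CD28 Treg cells had 8 without control Treg replicate B, 9 and 11 without anti-CD3-CD28 Treg replicates 1 and B. Against OX40L-JAG1 Treg cells they had 7 to 8 without either array of the 2 groups compared. OX40L-JAG1 Treg minus Teff had 12 without OX40L-JAG1 Treg replicate B, and the OX40L-JAG1 response 13 without control Teff replicate B. Anti-CD3-CD28 Teff minus control Teff had 2 and 3 without control Teff replicates B and 1, and 4 without either of its own stimulated arrays. Stimulated Treg minus Teff had 0 without replicate 1 of either group. Leaving out any 1 of the 10 arrays other than those of OX40L-JAG1 Teff cells gave 0 or 1 in fresh cells and in OX40L-JAG1 Treg minus control Treg, and 2 to 6 in the anti-CD3-CD28 response.

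The replicate block (arrays titled B against the others) gave 1 for control Treg minus Teff and 1 for OX40L-JAG1 Treg minus control Treg, and moved no other count by over 1.5 times. Of the 161 calls, 153 passed again with the block, 156 with median scaling, 159 with the mean of all rows, 128 with array weights and 55 with quantile normalization, which turned the sign of 13; loess turned 19 of them.

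Values that changed sign and were past the threshold as deposited or after the change all use the OX40L-JAG1 Teff arrays; 5 of those under loess were not past it as deposited. With quantile normalization they were, for OX40L-JAG1 Teff minus control Teff, Vars 0.15; for anti-CD3-CD28 Teff minus OX40L-JAG1 Teff, Slc38a1 -0.24; for OX40L-JAG1 Treg minus Teff, Slc3a2 -0.24, Slc38a2 -0.27, Slc7a6 -0.084, Shmt2 -0.22, Nars -0.23, Sars -0.082; and for the OX40L-JAG1 response, Slc7a5 -0.037, Slc3a2 -0.10, Slc1a5 -0.023, Mars -0.11, Nars -0.0057. With loess they were, in the same order, Slc38a2 0.023, Atf4 0.61, Vars 0.17; Slc3a2 -0.023, Slc1a5 -0.58, Slc38a1 -0.33, Atf4 -0.024, Odc1 -0.012; Slc3a2 -0.34, Slc1a5 -0.55, Slc38a1 -0.12, Slc38a2 -0.39, Slc7a6 -0.15, Shmt2 -0.32, Atf4 -0.62, Lars -0.067, Nars -0.34, Sars -0.24; and Slc7a5 -0.11, Slc3a2 -0.14, Slc1a5 -0.066, Atf4 -0.97, Mars -0.12, Nars -0.041. No detection call is used here, so low levels have no stated background. Groups of 2 arrays limit the precision, and Slc1a4, Slc7a11 and Cth stayed below the lowest array median in all groups.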
